A study of Drosophila melanogaster with 6 samples.

Results

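The transcripts described here are those of 9 Drosophila cell death genes, Diap1, Diap2, Dronc, Dark, Drice, Dcp-1, hid, rpr and skl, chosen by their symbols from the 17806 named genes of a count table. Dcp-1 is the caspase gene and not the like-named decapping gene DCP1. RNA was sequenced from GFP-positive intestinal progenitor cells, the stem cells and their undifferentiated daughters, sorted from adult Drosophila melanogaster females. The Patr1 genotype and the genotype esgTS, against which it is set, had 3 libraries each, and every library came from a pool of 100 flies kept for 6 days at 29 °C. The name esgTS is used in this field for a temperature-controlled esg-GAL4 driver that marks progenitors with GFP; the labels give no alleles and do not say how the Patr1 genotype alters Patr-1. Both genotypes share the GFP mark and the rearing. The labels do not say whether the replicates came from separate cultures, so the p-values measure the spread between these libraries only, which may be technical. The series was made to find RNAs under the control of P-bodies, the cytoplasmic granules of repressed mRNAs and decay factors.

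In flies, apoptosis is held back by the inhibitor of apoptosis proteins Diap1 and Diap2, which bind caspases. The RHG proteins Reaper, Hid, Grim and Sickle, encoded by rpr, hid, grim and skl, bind Diap1 and release its hold. The initiator caspase Dronc then assembles with the adaptor Dark and cleaves the effector caspases Drice and Dcp-1. The RHG genes lie in a cluster on chromosome arm 3L, with other annotated genes between them, and are best known as the points at which developmental and damage signals start cell death. In the adult midgut, cell loss is balanced by the division of the progenitors studied here.

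Library totals ran from 2035676 to 2958607 reads. The Patr-1 transcript itself averaged 35.7 ± 3.37 CPM (counts scaled by library size) in Patr1 and 219 ± 12.1 CPM in esgTS (SD, n = 3 each), a log2 fold change of -2.62. The 10 progenitor markers, esg and Dl among them, all had reads, and their summed level was 5399.7 to 6312 CPM in Patr1 libraries and 5990.0 to 6490.4 CPM in esgTS libraries. The 10 enterocyte markers summed to 1366 to 1436 CPM in Patr1 and 767 to 856 CPM in esgTS, and the 10 enteroendocrine markers to 218 to 404 CPM in Patr1 and 334 to 387 CPM in esgTS, where Mip had no read. The 8 visceral muscle markers summed to 67.8 to 74.3 CPM in Patr1 and 33.7 to 35.1 CPM in esgTS. For the 8 hemocyte markers the sums were 267 to 292 CPM in Patr1 and 293 to 331 CPM in esgTS, with most of the sum from crq. The markers NimC1, eater and He were at 0 reads in both genotypes. Another, Hml, had 2, 10 and 3 reads in Patr1 and 1, 0 and 1 in esgTS, too few for the test. The 5 germline markers summed to 19.8 to 26.6 CPM in Patr1 and 2.98 to 5.15 CPM in esgTS, where bam and osk had no read. In such bulk samples, fewer cells of a type and less RNA per cell cannot be told apart.

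Of the 9 cell death genes, 7 had enough reads to be tested and rpr and skl did not. Of the 7, 0 were higher and 2 were lower in Patr1 at an edgeR adjusted p of 0.05, namely hid and Dcp-1. Across all 7927 genes tested, 49.4% passed the same threshold, 25.5% higher and 23.9% lower in Patr1. The share of the cell death genes that passed, 28.6% of the 7, was no larger than that. Their median log2 fold change was -0.19, against 0.01 over all genes tested. The threshold left 5 genes uncalled, 4 of them with a log2 fold change below 0 (Diap1, Diap2, Dronc and Drice) and 1 above (Dark).

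Per kilobase of transcript, the inhibitors stood at the top in both genotypes and the RHG genes rpr and skl at the bottom. Diap1 averaged 94.7 ± 6.75 RPKM (CPM per kilobase of transcript) in Patr1 and 96.9 ± 12.6 RPKM in esgTS (SD, n = 3 each), at the percentiles 93.3 and 93.9 of the genes detected in these genotypes. Diap2 followed at 61.9 ± 7.44 RPKM in Patr1 and 70.8 ± 5.73 RPKM in esgTS. Next came Dronc, at 32.6 ± 5.58 RPKM in Patr1 and 35.8 ± 3.87 RPKM in esgTS, and Drice, at 30.0 ± 1.63 RPKM in Patr1 and 34.8 ± 0.53 RPKM in esgTS. These last 2 overlapped in both genotypes and have no order beyond their spread. Below them the order differed between the genotypes. In Patr1, Dcp-1 (13.6 ± 0.63 RPKM) and Dark (12.6 ± 0.40 RPKM) overlapped and hid lay below both at 7.02 ± 1.31 RPKM. In esgTS, Dcp-1 (21.2 ± 2.85 RPKM) and hid (17.7 ± 5.13 RPKM) overlapped and Dark lay below both at 11.1 ± 0.12 RPKM. The values for rpr and skl were under 1 RPKM in every library.

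**Figure D1:**
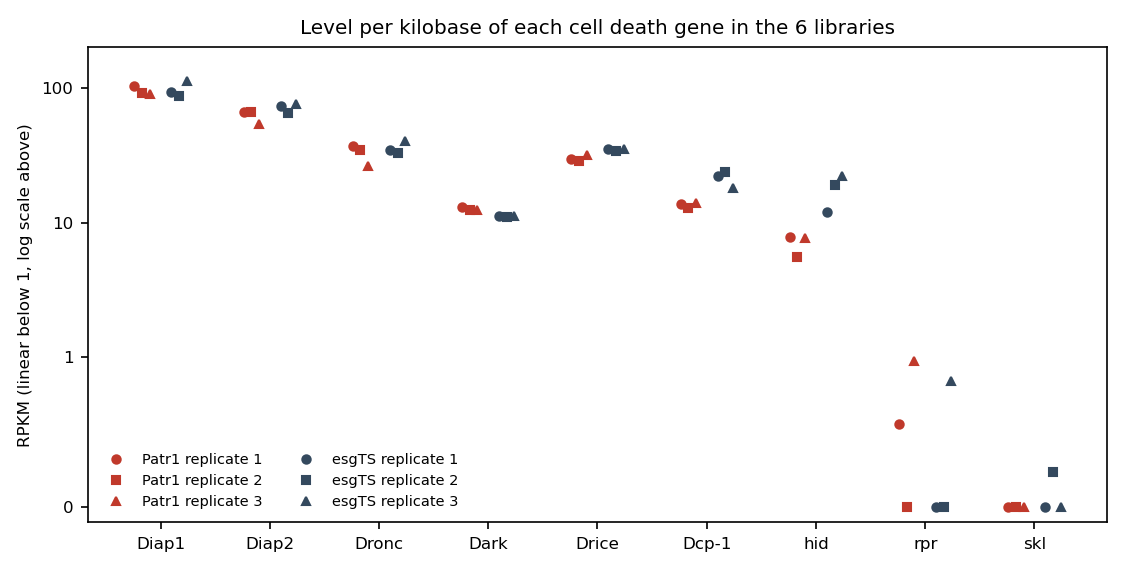
RPKM of each of the 9 cell death genes in every library, ordered by role from inhibitors to RHG genes (vertical axis linear below 1 and logarithmic above; red, Patr1; dark blue, esgTS; marker shape, replicate). Diap1 is the most abundant in both genotypes, hid lies below Dark in Patr1 and above it in esgTS, and rpr and skl are at or near 0.

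The main inhibitor, Diap1, a ubiquitin ligase that blocks Dronc and the effector caspases, differed by less than the spread between libraries. It was at 322, 287 and 284 CPM in Patr1 replicates 1, 2 and 3, and at 291, 274 and 349 CPM in the esgTS replicates. The groups overlapped over most of their range, with the highest and the lowest value both in esgTS. The log2 fold change was -0.03 ± 0.10 (SE), with a 95% interval of -0.25 to 0.19 and an edgeR adjusted p of 0.808. The sign of so small a value rested on esgTS replicate 3, without which it was 0.079. An antisense RNA gene on the opposite strand, asRNA:CR45889, covers 11.0% of the Diap1 exon bases, but had at most 10 reads in any library.

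Diap2, which holds effector caspases and is also a signalling ligase of the IMD immune pathway, did not pass the threshold either. Its level was 141, 141 and 114 CPM in Patr1 and 155, 138 and 161 CPM in esgTS, so that Patr1 replicates 1 and 2 lay between the esgTS values and Patr1 replicate 3 below them. The log2 fold change was -0.19 ± 0.10 (SE), with a 95% interval of -0.41 to 0.03 (edgeR adjusted p = 0.134).

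Neither part of the apoptosome passed the test. Dronc, the initiator caspase, was at 74.9, 69.2 and 53.2 CPM in Patr1, against 69.8, 65.8 and 80.8 CPM in esgTS. Patr1 replicate 3 was the lowest library and esgTS replicate 3 the highest, and the remaining 4 were interleaved. Its log2 fold change was -0.13 ± 0.13 (SE), with a 95% interval of -0.41 to 0.15 (edgeR adjusted p = 0.424). Dark, the Apaf-1 homologue on which Dronc assembles, was at 63.8, 60.7 and 60.2 CPM in Patr1, against 54.6, 53.6 and 54.5 CPM in esgTS. Every Patr1 library lay above every esgTS library, as groups did not overlap in 57.3% of all genes tested, in either direction. The difference was small, however, with a log2 fold change of 0.18 ± 0.09 (SE), a 95% interval of -0.02 to 0.38 and an edgeR adjusted p of 0.132. The antisense gene asRNA:CR44390 covers 56.9% of the Dark exon bases and had 1 read in all 6 libraries together.

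**Figure D2:**
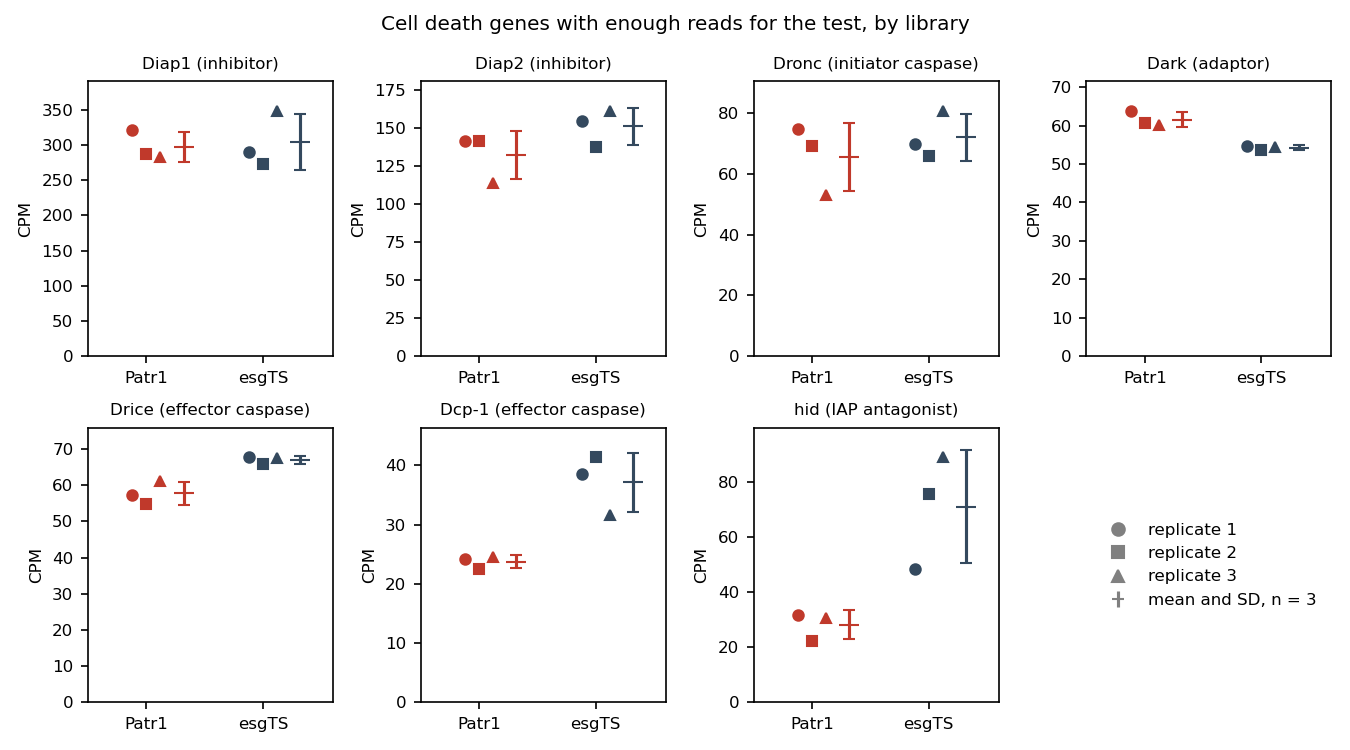
CPM of the 7 tested cell death genes in each library (left in each panel, Patr1 in red; right, esgTS in dark blue; marker shape, replicate; bars, mean and SD, n = 3; each vertical axis starts at 0). The Patr1 and esgTS points are apart for Dark, Drice, Dcp-1 and hid and overlap for Diap1, Diap2 and Dronc. Over all genes tested, the groups were apart in 57.3%.

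The effector caspases cut the proteins whose loss dismantles the cell. Both were lower in every Patr1 library than in any esgTS library, and Dcp-1 passed the test. Groups did not overlap for 4 of the 7 cell death genes tested, a share close to the 57.3% over all genes tested. Dcp-1 was at 24.1, 22.5 and 24.6 CPM in Patr1, against 38.5, 41.3 and 31.7 CPM in esgTS. The Patr1 libraries were tightly grouped, and the nearest esgTS library, replicate 3, was still above all of them. Dcp-1 fell by 0.65 on the log2 scale (SE 0.15, 95% interval -0.98 to -0.33), which is 1.57-fold lower in Patr1 (edgeR adjusted p = 0.00348). Over 13 alternative settings and left-out libraries the log2 fold change of Dcp-1 ran from -0.75 to -0.57 and the adjusted p from 3.93e-04 to 0.0215. It rests on 48 to 125 reads per library. On the opposite strand, pita, a zinc-finger protein gene, covers 13.7% of the Dcp-1 exon bases; it was lower as well (log2 -0.32 ± 0.09 SE, edgeR adjusted p = 0.0102), and no source used here states whether the counting used strand.

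Drice was at 57.3, 54.9 and 61.1 CPM in Patr1, against 67.7, 65.8 and 67.5 CPM in esgTS. The groups did not overlap, but the gap was narrow beside that of Dcp-1. The log2 fold change was -0.22 ± 0.09 (SE), with a 95% interval of -0.42 to -0.01, an unadjusted p of 0.0400 and an edgeR adjusted p of 0.0751. Scaled by library size alone, without a composition factor, Drice passed (edgeR adjusted p = 0.0477). Within a library, the level of Dcp-1 per kilobase was 0.464, 0.452 and 0.444 of that of Drice in Patr1, and 0.626, 0.692 and 0.517 of it in esgTS. The ratio was thus lower in each Patr1 library than in any esgTS library, a comparison that was not tested further.

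The largest difference among the cell death genes was in hid, whose protein antagonises Diap1. It was at 31.7, 22.2 and 30.8 CPM in Patr1 and at 48.5, 75.7 and 88.9 CPM in esgTS. All Patr1 libraries lay below all esgTS libraries, and the esgTS libraries differed among themselves by more than the Patr1 ones did, with replicate 1 the lowest. The means were 28.2 ± 5.25 CPM in Patr1 and 71.0 ± 20.6 CPM in esgTS (SD, n = 3 each). On the log2 scale hid fell by 1.35 (SE 0.21, 95% interval -1.82 to -0.88), and it was 2.55-fold lower in Patr1 (edgeR adjusted p = 2.47e-04). Leaving out each library in turn moved the log2 fold change between -1.57 and -1.16, and hid passed the threshold each time. Of the 7927 genes tested, 314 (3.96%) had a lower log2 fold change than hid. In the authors' deposited table, the log2 fold changes were -1.36 ± 0.23 (SE, adjusted p = 5.73e-08) for hid and -0.67 ± 0.22 (SE, adjusted p = 0.0114) for Dcp-1.

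Marker sums moved beside these differences. The enterocyte, visceral muscle and germline sums given above were higher in every Patr1 library than in any esgTS library, and the hemocyte sum was lower in every Patr1 library. The muscle and hemocyte differences did not hold without the most abundant gene of each list. Without sls, the muscle sums overlapped, at 23.2 to 29.0 CPM in Patr1 and 20.3 to 23.8 CPM in esgTS. Without crq, the hemocyte sums overlapped, at 105 to 122 CPM in Patr1 and 91.4 to 110 CPM in esgTS. Of the 4 hemocyte markers tested, crq and srp were lower in Patr1 (log2 -0.38 and -0.71) and vkg was higher (log2 4.89). The remaining one, Pxn, did not pass. The gene ex covers 15.7% of the crq exon bases on the opposite strand, and lncRNA:CR44133 covers 16.1% of the srp exon bases on the same strand. The germline sums without vas stayed apart, at 6.15 to 7.04 CPM in Patr1 and 2.32 to 4.81 CPM in esgTS. They were then mostly aub, which had 7 to 19 reads per library and did not pass (log2 0.76, edgeR adjusted p = 0.0859). The one germline marker called was thus vas (log2 4.96), and solo covers 24.6% of its exon bases on the same strand. The part of these markers in the hid and Dcp-1 values was not tested. The progenitor and enteroendocrine sums overlapped between the genotypes, but their members moved in both directions. All 10 progenitor markers were tested, and 4 were higher in Patr1 (sna, Dl, N and Sox21a, log2 0.40 to 1.46). Another 4 were lower (zfh2, klu, E(spl)mbeta-HLH and mira, log2 -0.92 to -0.39). Of 8 enteroendocrine markers tested, 3 were higher (dimm, AstA and CCHa1) and 1 was lower (Orcokinin). The shares called were 80% of the progenitor and 50% of the enteroendocrine markers, against 49.4% over all genes tested. Of 9 enterocyte markers tested, 7 were higher, 1 was lower (Myo31DF) and 1 did not pass, a share called of 88.9%. Their median log2 fold change was 1.06.

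The remaining RHG genes were at the limit of detection in both genotypes. In Patr1, rpr, which encodes Reaper, had 1, 0 and 2 reads, and in esgTS 0, 0 and 2. Summed over the group this is 0.417 CPM in Patr1 (exact 95% counting interval 0.0859 to 1.22) and 0.234 CPM in esgTS (0.0283 to 0.844), and no difference was detectable at this depth. The Sickle gene skl had 0 reads in Patr1, for which the exact 95% counting interval reaches 0.512 CPM, and 1 read in esgTS. For grim, which is not among the 9 genes but belongs to the same cluster, there were 2 reads in Patr1 and 1 in esgTS. These limits cover counting error only. In chromosomal order 17 annotated genes run from hid to skl, long non-coding and antisense RNA genes included. Of these, hid alone had enough reads to be tested, and the other 16 had 5 or fewer reads each in all 6 libraries together.

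**Figure D3:**
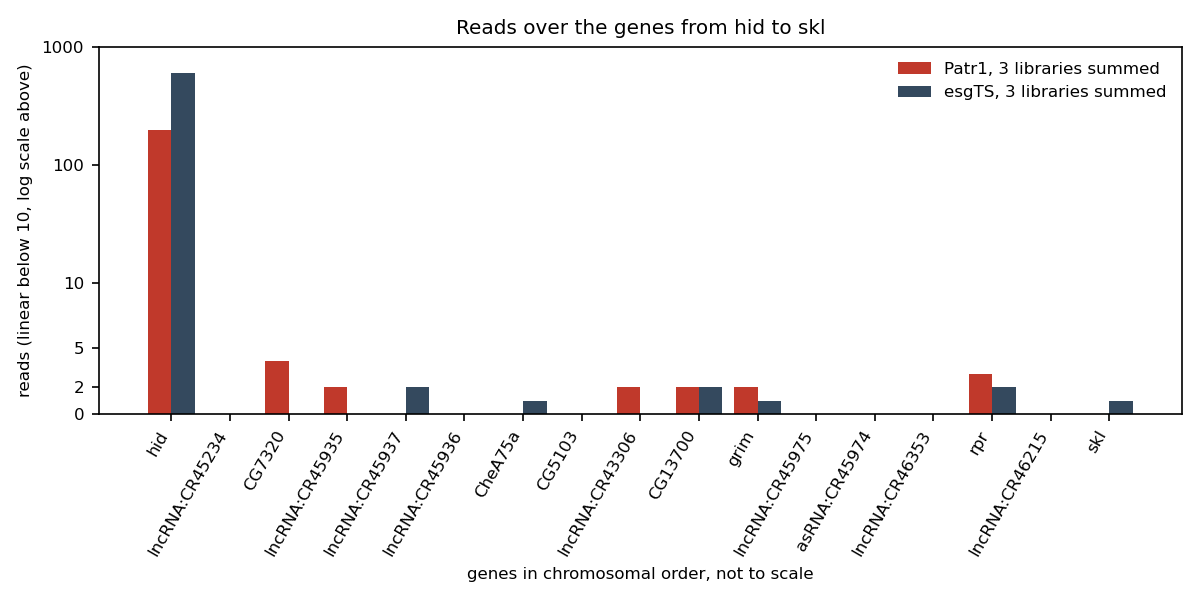
Reads over the 17 genes from hid to skl, summed over the 3 Patr1 libraries (red, left bars) and the 3 esgTS libraries (dark blue, right bars), in chromosomal order and not to scale (vertical axis linear below 10 and logarithmic above). The hid bars stand at 198 reads for Patr1 and 603 for esgTS, and rpr, grim and skl have between 0 and 3 reads per genotype.

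Set against its target within each library, hid was low relative to Diap1. The hid level per kilobase was 0.0769, 0.0604 and 0.0848 of the Diap1 level in Patr1 and 0.130, 0.217 and 0.199 of it in esgTS. The mean ratio was 0.0740 ± 0.0124 in Patr1 and 0.182 ± 0.0457 in esgTS (SD, n = 3 each). The initiator caspase and its adaptor showed a smaller shift, with Dronc at 2.58 ± 0.38 times the Dark level per kilobase in Patr1 and 3.22 ± 0.33 times in esgTS, and here Patr1 replicate 3 (2.14) was farthest from the rest. No test was made on these ratios, which share the levels given above.

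**Figure D4:**
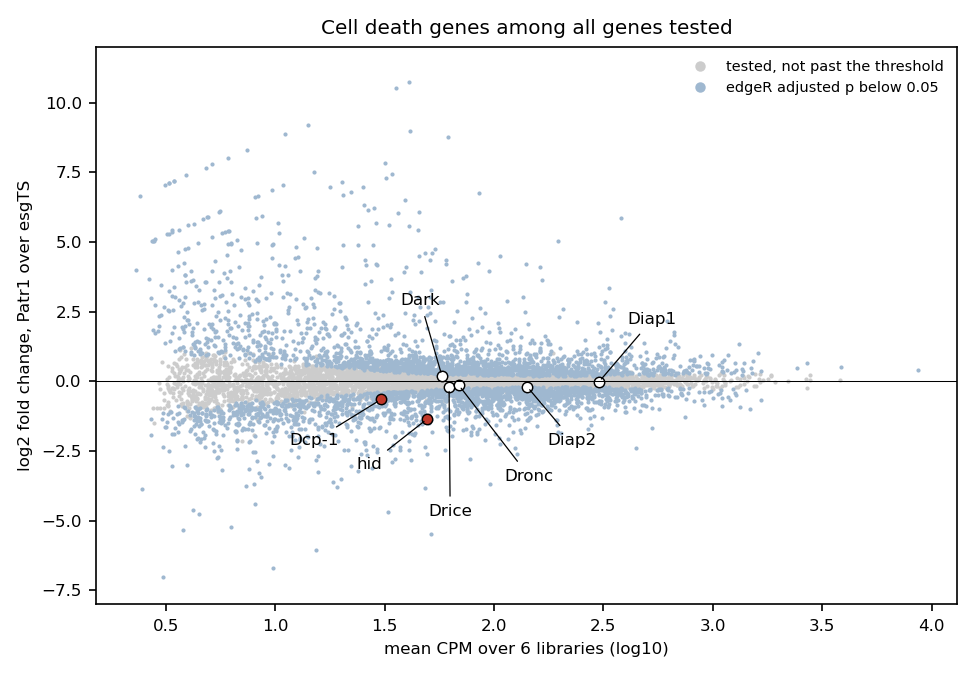
Log2 fold change (Patr1 over esgTS) against mean CPM (log10) for all 7927 genes tested, each a dot (blue, edgeR adjusted p below 0.05; grey, not past it), with the 7 tested cell death genes as large circles (filled red where past the threshold). Only hid and Dcp-1 are filled, at -1.35 and -0.65, and the other 5 lie between -0.22 and 0.18.

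The genes closest to Diap1 and hid in pattern were found by the mean absolute difference of centred log2 CPM over the 6 libraries. For Diap1, the most abundant of the 9 by CPM, they were Syx13, cype and CG18745, at differences of 0.0380, 0.0382 and 0.0391. The edgeR adjusted p-values of these 3 ran from 0.454 to 0.857. For hid, the member with the smallest p, they were Cbs (difference 0.134), CG9123 (0.162) and CG15611 (0.165). Cbs, the gene of cystathionine beta-synthase, was at 8.04, 6.13 and 8.79 CPM in Patr1, against 14.1, 30.4 and 26.3 CPM in esgTS, with replicate 1 the lowest esgTS library as for hid. With 6 libraries in 2 genotypes, such likeness describes these libraries and little more.

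Of 22 other apoptosis genes matched from a list of 23, 18 were tested, 2 were higher, 5 were lower and 11 did not pass, with a median log2 fold change of 0.11. The share called, 38.9%, was below the 49.4% over all genes tested. Caspases made up 3 of the 5 that fell. Strica, a caspase with a long prodomain, was at 19.1, 24.9 and 16.7 CPM in Patr1, against 60.1, 55.9 and 67.5 CPM in esgTS, a 2.97-fold lower level (log2 -1.57 ± 0.15 SE, edgeR adjusted p = 4.88e-06). The gap between the groups was wider than either group's range. Pngl covers 14.2% of the Strica exon bases on the opposite strand. Dredd, the caspase of the IMD pathway, fell by 0.51 on the log2 scale (39.8 ± 3.01 CPM in Patr1, 56.4 ± 3.69 CPM in esgTS, edgeR adjusted p = 0.00267), and the effector-type caspase gene Decay by 0.35 (70.0 ± 2.04 CPM in Patr1, 89.6 ± 9.58 CPM in esgTS, edgeR adjusted p = 0.0119). Damm, the remaining caspase gene of the list, leaned the other way (log2 0.98 ± 0.41 SE, edgeR adjusted p = 0.0631). It was at 12.1, 13.0 and 6.59 CPM in Patr1, against 8.93, 4.30 and 2.67 CPM in esgTS, which overlap. It passed as higher with no filter on low counts, with a replicate block, and without Patr1 replicate 3 or esgTS replicate 1. CG42531 covers 29.6% of the Damm exon bases on the opposite strand.

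The other falls were in eIF3m, also called Tango7, a translation initiation factor subunit that also acts with the apoptosome, and in Drep1, related to the inhibitor of the caspase-activated nuclease. The first was at 185 ± 18.5 CPM in Patr1 and 265 ± 25.8 CPM in esgTS (edgeR adjusted p = 8.53e-04), the second at 52.7 ± 5.31 CPM in Patr1 and 66.8 ± 7.20 CPM in esgTS (edgeR adjusted p = 0.0267). The 2 rises were in HtrA2, a mitochondrial protease gene, at 43.9 ± 4.61 CPM in Patr1 and 32.5 ± 3.82 CPM in esgTS (edgeR adjusted p = 0.0176), and in Drep2, at 13.9 ± 3.40 CPM in Patr1 and 7.53 ± 1.65 CPM in esgTS (edgeR adjusted p = 0.0238). With DESeq2, 0 of the 18 rose and 3 fell (Strica, Dredd and eIF3m), and without esgTS replicate 2, 0 rose and 4 fell. Decay, Drep1, HtrA2 and Drep2 each lost the threshold with DESeq2 and with at least 1 left-out library. Bruce, a giant ubiquitin ligase of the inhibitor family, was the most abundant gene of the list at 1535 ± 56.6 CPM in Patr1 and 1353 ± 37.3 CPM in esgTS (edgeR adjusted p = 0.112). Of the Bcl-2 family genes, Debcl averaged 52.3 ± 4.41 CPM in Patr1 and 49.9 ± 5.40 CPM in esgTS (edgeR adjusted p = 0.643), and Buffy had too few reads for the test.

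Regulators that in fly tissues act on RHG genes or Diap1, or carry JNK signals for cell death, changed in both directions. Of 20 such genes, 16 were tested, 3 were higher, 8 were lower and 5 did not pass, with a median log2 fold change of -0.28. The share called was 68.8%, against 49.4% over all genes tested. The Hippo pathway coactivator gene yki, whose product drives Diap1 transcription with that of sd, was at 67.8 ± 4.44 CPM in Patr1 and 112 ± 11.0 CPM in esgTS (log2 -0.72 ± 0.10 SE, edgeR adjusted p = 7.82e-05). Its partner sd was at 341 ± 23.7 CPM in Patr1 and 523 ± 43.8 CPM in esgTS (log2 -0.62 ± 0.09 SE, edgeR adjusted p = 1.46e-04). The forkhead factor gene foxo, an activator of hid under low insulin signalling, was at 233 ± 10.5 CPM in Patr1 and 384 ± 16.0 CPM in esgTS (log2 -0.72 ± 0.08 SE, edgeR adjusted p = 1.25e-05).

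The ecdysone receptor gene EcR, whose product activates rpr and hid in dying larval tissue, fell by 0.63 on the log2 scale (127 ± 10.1 CPM in Patr1, 199 ± 5.98 CPM in esgTS, edgeR adjusted p = 4.58e-05). Its dimer partner gene usp and its target br were lower too, as were egr, the TNF ligand gene, and hep, a gene of a kinase that activates JNK. The 3 genes that were higher were the ecdysone-induced factor gene Eip93F, at 735 ± 108 CPM in Patr1 and 488 ± 85.2 CPM in esgTS (edgeR adjusted p = 0.00330), puc, the JNK phosphatase gene, at 578 ± 49.8 CPM in Patr1 and 423 ± 49.1 CPM in esgTS (edgeR adjusted p = 0.00313), and p53, an activator of rpr after DNA damage, at 34.1 ± 2.18 CPM in Patr1 and 26.0 ± 1.07 CPM in esgTS (edgeR adjusted p = 0.0322). The p53 call was lost in 8 of the 13 alternatives, among them DESeq2 (adjusted p = 0.20) and 5 of the 6 fits with a library left out, all but that without Patr1 replicate 3. On the opposite strand, asRNA:CR46089 covers 38.0% of the p53 exon bases. The other 10 calls of this list held in all 13. Of the genes with too few reads for the main test, grnd was higher with DESeq2 (log2 4.84, adjusted p = 0.00611). Without the filter on low counts, grnd and Abd-B both passed as higher. For grnd there were 7, 20 and 1 reads in Patr1 and 1, 0 and 0 in esgTS. Abd-B had 2, 5 and 9 reads in Patr1 and 1, 0 and 3 in esgTS. Its groups overlapped in CPM, and it did not pass with DESeq2 (adjusted p = 0.162).

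Engulfment genes, with which cells take up dead neighbours, moved in both directions. Of 13 matched from 14 listed, 12 were tested, 5 were higher, 4 were lower and 3 did not pass, with a median log2 fold change of 0.05. The share called was 75%, against 49.4% over all genes tested. The receptor gene drpr was at 569, 553 and 500 CPM in Patr1, against 166, 150 and 135 CPM in esgTS, a 3.59-fold higher level (log2 1.85 ± 0.10 SE, edgeR adjusted p = 2.09e-08). By contrast, ced-6, which encodes the adaptor on the Draper receptor's tail, was at 9.05, 9.20 and 8.35 CPM in Patr1, against 21.3, 26.8 and 27.1 CPM in esgTS, a 2.81-fold lower level (log2 -1.49 ± 0.21 SE, edgeR adjusted p = 8.03e-05). The groups were far apart for both genes.

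The GTPase gene Rac2 rose 2.36-fold, to 426 ± 36.3 CPM in Patr1 against 181 ± 11.1 CPM in esgTS (edgeR adjusted p = 4.00e-07). Ced-12, the ELMO homologue that activates Rac, rose 1.47-fold, to 145 ± 9.99 CPM in Patr1 against 99.0 ± 2.24 CPM in esgTS (edgeR adjusted p = 1.38e-04). Src42A and Rac1 were also higher, and crq, Rab7 and Crk lower, with log2 fold changes of -0.38 to -0.32. The Crk call was lost with DESeq2 (adjusted p = 0.126) and without Patr1 replicate 2, and the Rab7 call without esgTS replicate 3.

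**Figure D5:**
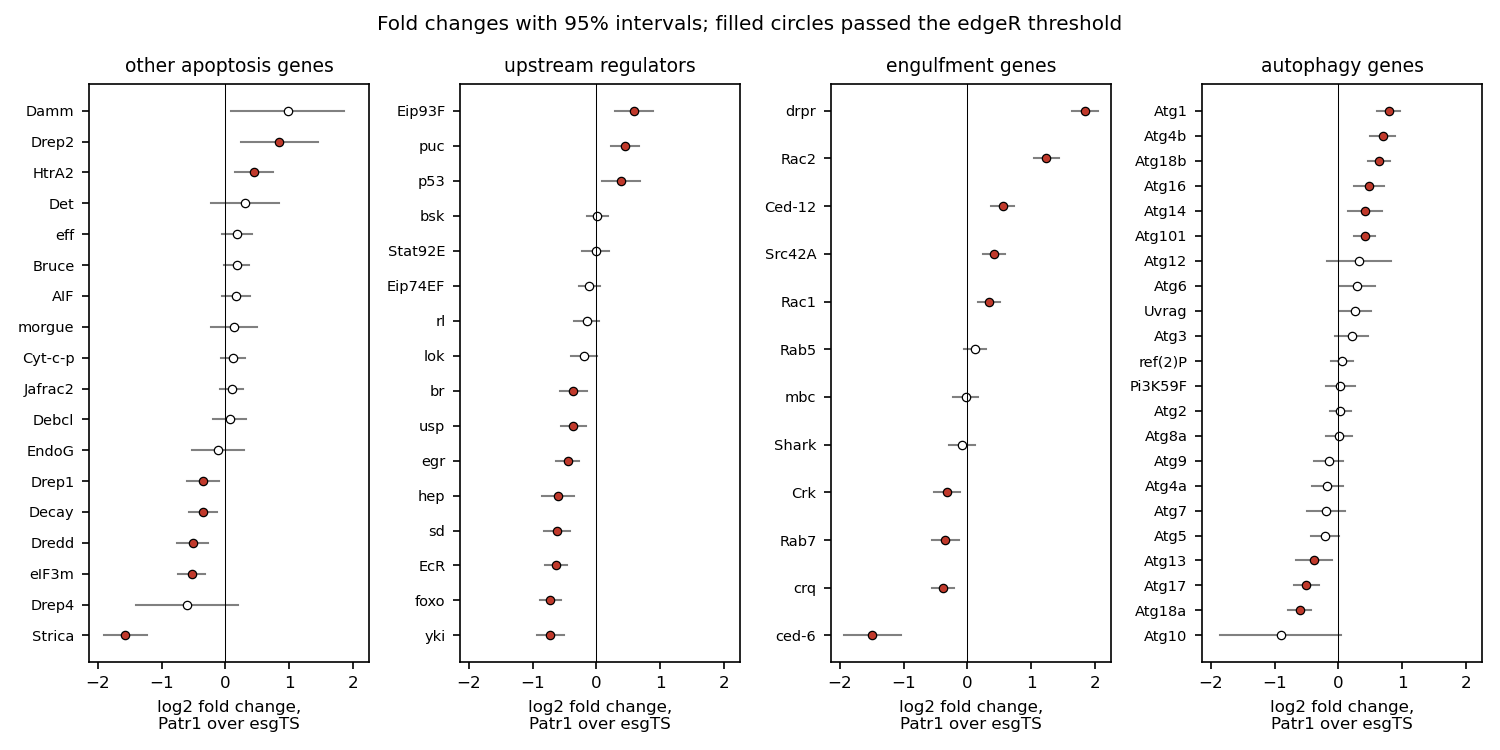
Log2 fold change (Patr1 over esgTS) of every tested gene in 4 lists of related genes, with 95% intervals (filled circles, edgeR adjusted p below 0.05; genes ordered by fold change within each list). Strica and ced-6 lie lowest and drpr highest, at -1.57, -1.49 and 1.85.

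Autophagy genes, whose products degrade cytoplasm and take part in some forms of cell death, also changed in both directions. Of 23, 22 were tested, 6 were higher, 3 were lower and 13 did not pass, with a median log2 fold change of 0.05. The share called, 40.9%, was below the 49.4% over all genes tested. The kinase gene Atg1, which starts autophagosome formation, rose 1.73-fold, to 389 ± 24.1 CPM in Patr1 against 225 ± 12.4 CPM in esgTS (edgeR adjusted p = 8.82e-06). Atg4b, a protease gene that processes Atg8, rose 1.62-fold, to 134 ± 7.38 CPM in Patr1 against 83.0 ± 6.27 CPM in esgTS (edgeR adjusted p = 4.20e-05). The lipid-binding factor genes Atg18b and Atg18a went opposite ways. Atg18b was at 295 ± 17.9 CPM in Patr1 and 190 ± 8.88 CPM in esgTS (log2 0.64 ± 0.08 SE, edgeR adjusted p = 4.00e-05), and Atg18a at 85.5 ± 4.14 CPM in Patr1 and 130 ± 6.04 CPM in esgTS (log2 -0.60 ± 0.08 SE, edgeR adjusted p = 7.82e-05). Atg14, Atg16 and Atg101 were also higher, and Atg13 and Atg17 lower. The Atg14 call was lost with DESeq2 (adjusted p = 0.0918) and without replicate 2 of Patr1 or of esgTS. The Atg13 libraries of the genotypes overlapped in CPM, and its call was lost with DESeq2 (adjusted p = 0.0528) and in 4 of the 6 fits with a library left out, those without Patr1 replicate 1 or 3 or esgTS replicate 1 or 2. The autophagosome protein gene Atg8a was at 276 ± 14.1 CPM in Patr1 and 274 ± 29.1 CPM in esgTS (log2 0.01, 95% interval -0.19 to 0.21, edgeR adjusted p = 0.932).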

How the data were processed

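RNA-seq was done on sorted progenitors, 3 Patr1 and 3 esgTS libraries, made by Ovation SoLo with rRNA depletion (source: the labels' protocols). Tools in the submitters' processing notes are STAR 2.7.3a, cutadapt 2.9, featureCounts of Subread 2.0.0, SAMtools 1.10 and DESeq2. No source used here gives the genome build, annotation or strand setting, so coordinates are left out. Per the file headers, the deposited table has raw read counts for each gene. The authors' table holds normalized values (a signal scaled by 1 factor per library), log2 fold changes with standard errors, a Wald score, p-values and their adjusted form, per the file headers.

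The raw counts were tested with edgeR 4.0.16 in R 4.3.3 (quasi-likelihood, TMM factors, default filter by group, Benjamini-Hochberg over all genes tested, threshold 0.05). CPM and RPKM use TMM-scaled library sizes and the deposited gene lengths. Standard errors are the log2 fold change over the root of the F statistic. DESeq2 1.42.0, other scalings and filters, a replicate block and left-out libraries were the alternatives. A row with no gene name, at most 0.00296% of reads, was left out. The detection floor of 3 reads stood at 0.992 to 1.51 CPM. Within genotypes, all 6 library pairs differed beyond sampling noise (chi-square over its degrees of freedom, 2.57 to 4.50). Exon overlaps and gene order come from BDGP6 and RefSeq; 99.2% of 17018 genes with a shared symbol had the deposited length. Septin4 and pallbearer were not matched. The test was checked on simulated data.

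Members and lists were chosen with earlier results of these data known. Named are the 9 genes, Patr-1, grim, up to 4 genes per list with the smallest p, and the 3 genes nearest in pattern to Diap1 and hid, among genes of at least 5 CPM on the log2 scale with 0.5 added. The other list members were named after their values were seen.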

Additional observations from a re-analysis of the deposited data

How the results depend on the processing

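The calls of hid and Dcp-1 held in all 13 alternatives, and the uncalled Diap2, Dronc and Dark stayed uncalled in all 13. Drice passed with library size only (log2 -0.25, edgeR adjusted p = 0.0477), and with a library left out Diap1 ranged from -0.11 to 0.079 on the log2 scale, positive only without esgTS replicate 3. The number of the 18 other apoptosis genes called, 7, was 3 with DESeq2 and 4 to 7 with a library left out. With a library left out, 2 cell death genes, 7 to 10 autophagy genes, 10 to 11 upstream regulators, 8 to 9 engulfment genes and 3258 to 3994 of all genes were called. With the replicate number as a block, the log2 fold change was -1.34 for hid and -0.65 for Dcp-1. Same-numbered libraries correlated at -0.0404 to 0.196 in their deviations, and differently numbered ones at -0.302 to 0.213. This gives no sign that the numbers pair the samples, but so few libraries cannot exclude it. As an alternative chosen after seeing the data, marker sums were taken without their most abundant gene. The enterocyte sum without Myo31DF was 1055 to 1084 CPM in Patr1 and 318 to 352 CPM in esgTS. Myo31DF itself was lower in Patr1 (log2 -0.53, edgeR adjusted p = 2.73e-04), so leaving it out widened the difference. The enterocyte marker bbg was at 564 ± 20.6 CPM in Patr1 and 113 ± 11.0 CPM in esgTS (SD), and no sum was taken without it. Depth limits rpr, skl and grim, whose levels lie under the floor of detection in every library.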
